A study of Homo sapiens with 12 samples.

Results

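The quantity examined was how far the response to BRG1 siRNA differed between 2 colorectal cancer lines. It is the change of each gene after BRG1 siRNA in HCT 116 cells minus its change in DLD1 cells. Both changes are on the log2 scale, and each is taken against that line's own control siRNA. All 12 arrays of the series entered it, out of 12 in all, with 3 arrays in each of 4 groups: siControl and siBRG1 in DLD1, and the same pair in HCT 116. DLD1 and HCT 116 are established human colorectal cancer cell lines and total RNA was read on single-colour arrays that gave values for 17687 named genes. Every group received an siRNA. No source used here gives the siRNA sequences or the hours of treatment. Nor does any label say that replicate arrays stem from different cultures. The p-values therefore rest on array-to-array spread that may be technical.

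BRG1, encoded by SMARCA4, is an ATPase that powers SWI/SNF complexes, which move nucleosomes and open promoters and enhancers to transcription factors. It has a close relative, BRM (SMARCA2), that can take its place in the complexes. Which genes respond to loss of BRG1 is known to vary between cell types, since the complexes act where lineage and signalling factors bring them. The lines also differ in mutations: HCT 116 is known to carry a mutant beta-catenin and DLD1 a truncated APC.

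All 10 markers of colon epithelial lines, among them EPCAM, CDH1 and KRT8, lay above background in both DLD1 groups. In both HCT 116 groups 7 of the 10 did, and VIL1, CDH17 and TSPAN8 were at background. Of 9 fibroblast markers 2 were above background in each group, and the summed level of that list lay between 9.03 and 9.60 over the 12 arrays, against 17.46 to 18.65 for the epithelial list. Of 9 immune markers 4 or 5 were above background in each group, with CD14, CSF1R and NKG7 in every group. Of 8 endothelial markers 2 or 3 were, with VWF and ERG in every group. These immune and endothelial lists summed to between 7.75 and 8.93. Correlations between arrays over all features were 0.988 to 0.994 within a group and 0.941 to 0.952 across lines. Precision is limited by 3 arrays a group: the median standard error (SE) of the difference was 0.31, and 0.22 for the change in a line.

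The RNA of the siRNA target fell in both lines, so the comparison sets 2 knockdowns at the RNA level side by side. BRG1 protein was not measured on these arrays. SMARCA4 read 10.31, 9.95 and 10.29 on the DLD1 siControl arrays and 6.29, 6.55 and 6.31 on the DLD1 siBRG1 arrays. In HCT 116 it read 10.12, 10.15 and 9.59 with siControl and 6.78, 6.39 and 7.03 with siBRG1. No siBRG1 array reached any siControl array in either line. The difference between the lines' changes was 0.58 (SE 0.30, 95% interval −0.07 to 1.23, limma adjusted p = 0.631), so a somewhat smaller fall in HCT 116 was not separated from an equal one. SMARCA2 had a difference of −0.35 (SE 0.45, limma adjusted p = 0.917). Its mean lay above background in DLD1 siControl (7.36) and just under the background level of 5.18 in HCT 116 siControl (5.14). The HCT 116 siControl arrays read 4.51, 5.67 and 5.25, on both sides of that level.

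Of the 17687 genes, 59 (0.334%) had a difference that passed limma at an adjusted p under 0.05 (Benjamini-Hochberg over all genes), and 1590 (9.0%) had an unadjusted p under 0.05. The difference was above 0 in 28 genes (0.158%) and below 0 in 31 (0.175%). Sizes of the differences called ran from 1.11 to 4.70, with a median of 1.76. In 53 of the 59 the change was larger in HCT 116, 25 of them rises and 28 falls there. In 6 it was larger in DLD1, 3 upward and 3 downward. For scale, the change in HCT 116 itself passed in 6.95% of all genes (2.82% up, 4.13% down) and that in DLD1 in 0.198% (0.0678% up, 0.13% down). The DLD1 count was 35 genes, 7 (without DLD1 siControl replicate 3) to 66 (without DLD1 siBRG1 replicate 1) with an array left out, and 106 with the replicate number as a block in DLD1. HCT 116 siBRG1 and siControl arrays did not overlap in 58 of the 59 genes, against 24.9% of all genes, and DLD1 arrays did not overlap in 22, against 15.5% of all genes. The changes within the lines share their arrays with the difference, so these counts describe the genes and are not separate evidence.

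The count depended on the arrays and on the scaling. Leaving out 1 DLD1 array gave 38 (siControl replicate 1), 26 (siControl replicate 3) or 37 (siBRG1 replicate 3). Leaving out 1 HCT 116 array gave 29 (siControl replicate 2), 30 (siControl replicate 3) or 26 (siBRG1 replicate 3). The other 6 arrays gave 40 to 71, the highest without HCT 116 siBRG1 replicate 1 (71) and siControl replicate 1 (69). With the replicate number as a block within each line it was 102, and 50 of the 59 passed there. With that block in DLD1 alone it was 98, and 58 of the 59 passed. After centring each array on its median, which moved the median difference of all genes by 0.13, the split was 43 above 0 and 19 below, in place of 28 and 31, and after a further quantile normalization 36 and 29. No sign of the 59 differences changed under any alternative run. In 22 of the 59 genes the call stood whichever of the 12 arrays was left out.

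**Figure D1:**
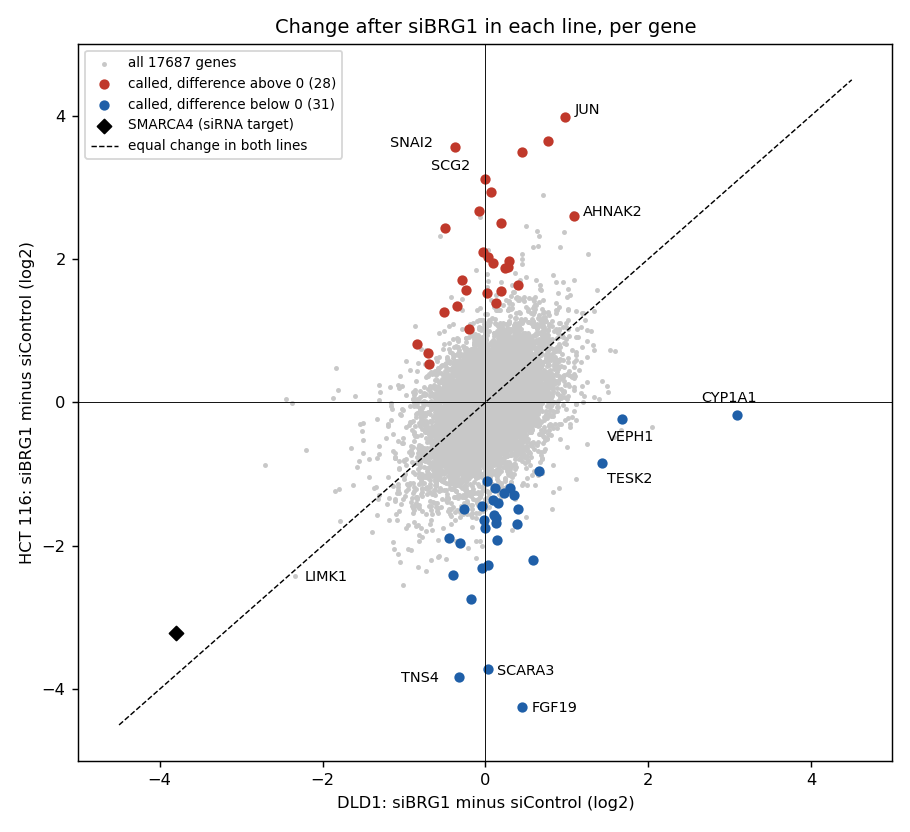
Change after siBRG1 in DLD1 (x axis, log2) against the change in HCT 116 (y axis, log2) for 17687 genes, with the 28 genes called for a difference above 0 in red, the 31 called below 0 in blue and SMARCA4 as a black diamond. Genes on the dashed line changed equally in both lines; most coloured points lie along the vertical axis, where DLD1 changed little, and CYP1A1, VEPH1 and TESK2 lie out to the right.

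A difference can arise from a gene that only 1 line expresses, so the level in the control groups was weighed first. A gene was taken to be at background in a group when its mean lay at or below the 95th percentile of 347 olfactory receptor genes, which colon cells are taken not to express. That level was 4.98 in DLD1 siControl and 5.18 in HCT 116 siControl. Of the 59 genes, 37 (62.7%) lay above background in both control groups, near the 60.6% of all genes tested. A further 15 (25.4%) lay above it in HCT 116 siControl only, against 2.7% of all genes. In DLD1 siControl only stood 4 (6.8%), against 4.1% of all genes, and in neither 3 (5.1%), against 32.6%. Of the 15, 8 had a difference below 0 and 7 above. DLD1 was at background in both its groups in 16 of the 59 genes, 8 in each direction, so that a response of DLD1 could not be read there. Values at background still enter the difference, as in AGAP2 (difference 1.24). Its change was −0.70 in DLD1, at background, and 0.54 in HCT 116, so the fall in DLD1 made up the larger part.

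A gene that is expressed in DLD1 and missed the threshold there is not thereby shown to be unresponsive. The 95% interval of the DLD1 change was used for that, with a gene called bounded where the whole interval lay within −1 to 1, that is under 2-fold either way. Of 41 called genes above background in DLD1 siControl, 32 were bounded (78.0%), against 82.4% of all genes above background there. Of the 37 genes above background in both controls, 30 were bounded in DLD1, 18 that fell and 12 that rose in HCT 116. In the opposite case, above background in both controls and bounded in HCT 116, stood VEPH1 alone. With a bound of 1.5-fold, 17 genes were bounded in DLD1 in place of 32. With the replicate block in DLD1 alone, 98 genes were called for the difference and 52 of those were bounded.

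**Figure D2:**
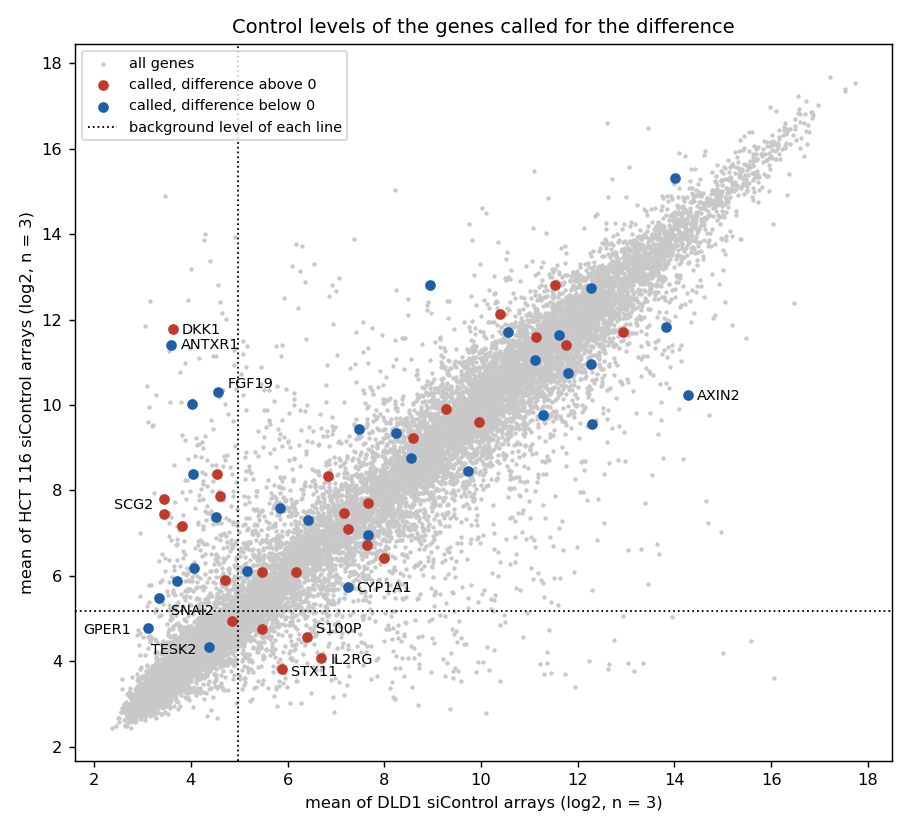
Mean level in DLD1 siControl (x axis, log2, n = 3 arrays) against HCT 116 siControl (y axis, log2, n = 3), with the genes called for the difference in red (above 0) and blue (below 0) over all genes in grey. Dotted lines mark the background levels of 4.98 and 5.18; the 15 coloured points in the upper left field, such as DKK1, ANTXR1 and FGF19, were expressed in HCT 116 and at background in DLD1.

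Among genes expressed in both lines, the largest falls in HCT 116 were those of SCARA3 and TNS4. SCARA3, a scavenger receptor family gene, stood at the same level in both controls: 11.43, 11.48 and 11.92 in DLD1 and 11.47, 11.75 and 11.67 in HCT 116. With siBRG1 it read 11.66, 11.47 and 11.78 in DLD1 and 8.05, 7.77 and 7.89 in HCT 116, where the groups lay more than 3 log2 units apart. The difference was −3.75 (SE 0.26, limma adjusted p = 8.67e-06), and the interval of the DLD1 change ran from −0.36 to 0.43. TNS4, a tensin of focal adhesions, read 10.78, 10.71 and 10.77 in HCT 116 siControl and 7.45, 6.92 and 6.41 in siBRG1. In DLD1 its arrays overlapped, at 12.03, 12.03 and 11.36 with siControl and 11.53, 12.07 and 10.85 with siBRG1. The difference was −3.50 (SE 0.43, limma adjusted p = 0.00195). Both calls stood in all 12 fits that left out an array.

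AXIN2, a target of Wnt signalling that feeds back to degrade beta-catenin, was lowered in HCT 116 from a lower start. DLD1 siControl arrays read 14.26, 14.36 and 14.20 and siBRG1 arrays 13.82, 13.97 and 13.85, which did not overlap but did not pass in that line (change −0.39, limma adjusted p = 0.39). HCT 116 went from 10.16, 10.32 and 10.23 to 7.63, 7.93 and 7.95. The difference was −2.01 (SE 0.23, limma adjusted p = 0.00117) and held in all 12 fits. CASP4, the inflammatory caspase that senses bacterial lipopolysaccharide inside the cell, read 9.62, 9.62 and 9.43 in HCT 116 siControl and 7.74, 7.19 and 6.93 in siBRG1. In DLD1 it stayed between 12.06 and 12.72 on all 6 arrays, and the difference was −2.29 (SE 0.33, limma adjusted p = 0.00777).

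Other genes expressed in both lines that fell in HCT 116 and passed the test of the difference are given by their change in HCT 116 and then in DLD1. PHLDB2, which anchors microtubules at the cell cortex, changed by −1.70 and 0.38, the splicing regulator MBNL3 by −1.92 and 0.14, and the Polycomb-associated PHF19 by −1.57 and 0.11. ASIC1, an acid-sensing ion channel, changed by −2.31 and −0.04, but its HCT 116 siBRG1 mean of 4.99 was at background, as was that of SH3TC2 (4.17, with changes of −1.96 and −0.31), so the size of these 2 falls is uncertain. In DLD1, SH3TC2 was close to background too. Its siControl mean there was 5.17, and its siBRG1 mean of 4.85 lay below that group's level of 4.89. The perforin gene PRF1 changed by −1.75 and −0.01, the mitochondrial carrier SLC25A23 by −1.64 and −0.02, the matrix protein VWA1 by −1.68 and 0.13, and BTBD2 by −1.41 and 0.15. The sedoheptulose kinase gene SHPK changed by −1.90 and −0.45, TSPAN14, a tetraspanin partner of ADAM10, by −1.44 and −0.04, and AP1M2, an adaptor subunit of epithelial protein sorting, by −1.19 and 0.12. The fatty acid activating ACSL5 changed by −1.49 and −0.26, and ORC3, of the origin recognition complex, by −1.09 and 0.02. Of these 14 genes, ASIC1 and PHLDB2 passed in all 12 fits without an array, MBNL3 in 7, SH3TC2 in 6 and the rest in 0 to 4. With the replicate block VWA1 (limma adjusted p = 0.0723), AP1M2 (0.0524), ACSL5 (0.0504) and ORC3 (0.0511) did not pass.

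In a further set the fall in HCT 116 had no counterpart to be seen in DLD1, since the gene was at background there. FGF19, a secreted growth factor of the bile acid axis that signals through FGFR4, had the largest difference of all. It read 10.50, 10.26 and 10.14 in HCT 116 siControl and 6.67, 5.97 and 5.51 in siBRG1. DLD1 arrays read 4.28, 5.10 and 4.32 with siControl and between 4.88 and 5.19 with siBRG1, at or next to the background level. The difference was −4.70 (SE 0.39, limma adjusted p = 5.24e-05). KRT23, a keratin, read 9.49, 10.27 and 10.31 in HCT 116 siControl and 6.94, 7.80 and 7.09 in siBRG1, against 3.49 to 4.16 over the 6 DLD1 arrays (difference −2.57; SE 0.38, limma adjusted p = 0.00777). Both calls stood in all 12 fits without an array.

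ANTXR1, a collagen-binding receptor of anthrax toxin, went from 11.64, 11.26 and 11.32 to 10.43, 8.84 and 8.36 in HCT 116, with siBRG1 replicate 1 well above the other 2. DLD1 lay between 3.47 and 4.43. Its difference of −2.78 (SE 0.53, limma adjusted p = 0.039) passed in 1 of 12 fits without an array and did not pass with a block in DLD1 alone (adjusted p = 0.0606). HAPLN3, which links hyaluronan to proteoglycans, changed by −1.49 in HCT 116, ending at background, with a difference of −1.89 that held in all 12 fits. The Notch ligand gene DNER (−1.61), the RNA-binding MSI1 (−1.29), the semaphorin receptor PLXND1 (−1.19) and the metalloproteinase ADAM19 (−1.26) also fell in HCT 116 and were at background in both DLD1 groups. DNER and PLXND1 ended at background in HCT 116 too. These 4 calls stood in 1, 2, 2 and 8 of 12 fits, and that of MSI1 did not pass with the replicate block (limma adjusted p = 0.0524). GPER1, an oestrogen-binding receptor, had a difference of −1.45 while all 4 of its group means, 3.11 to 4.78, lay at background.

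**Figure D3:**
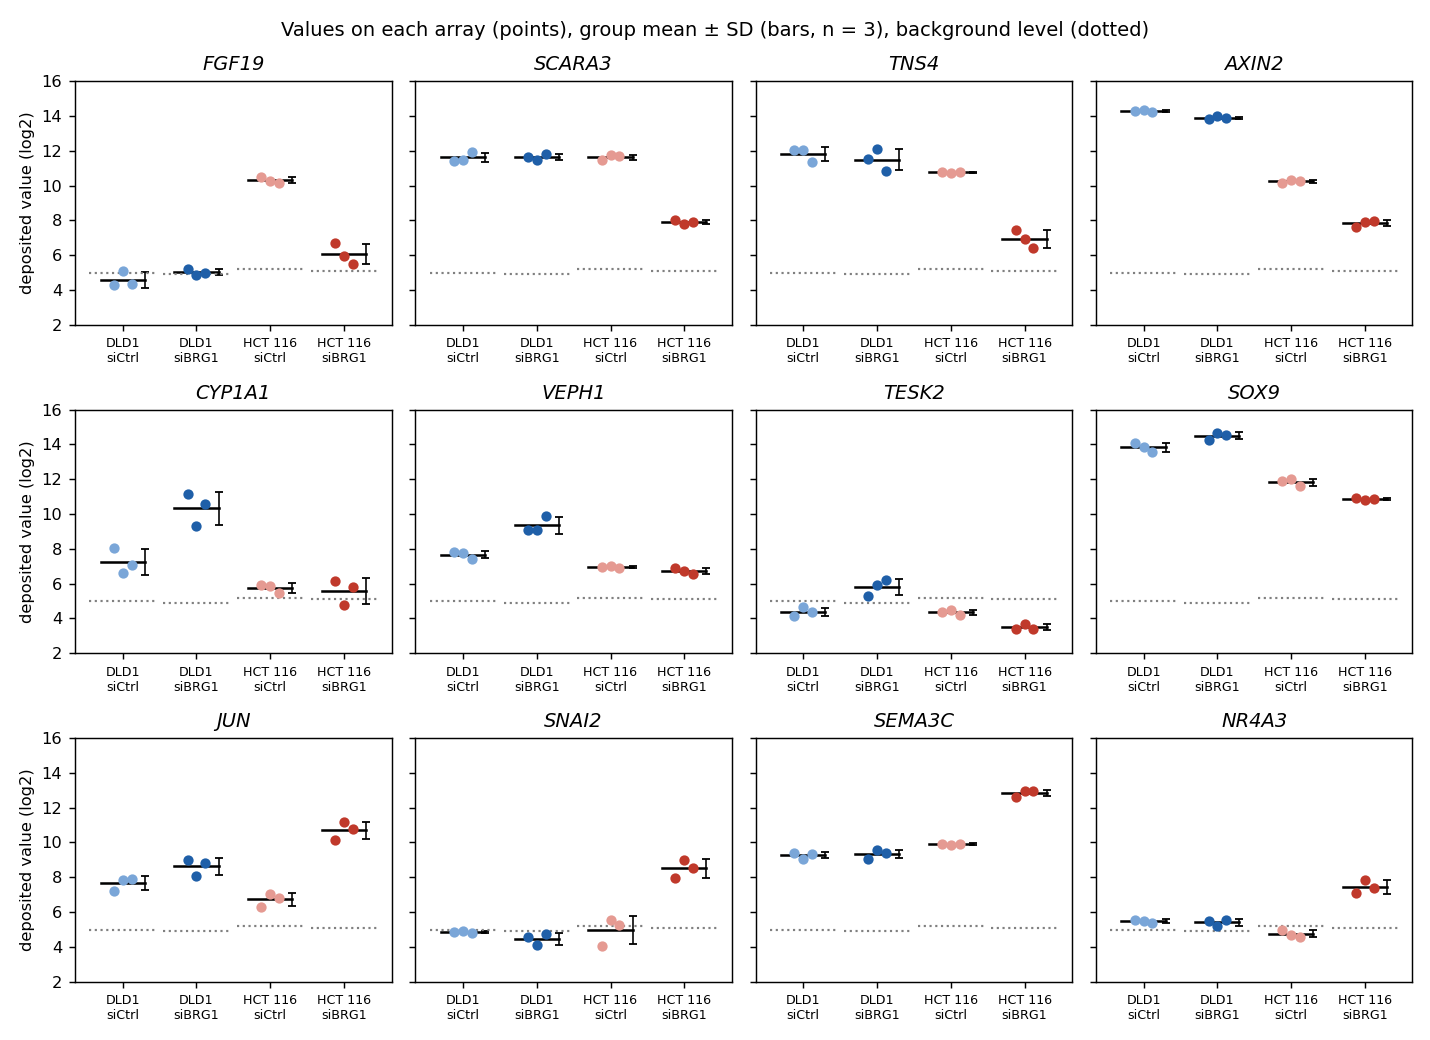
Deposited log2 values of 12 genes on each of the 12 arrays (points), with group means as horizontal bars, SD as error bars (n = 3 arrays) and the background level of each group dotted. FGF19, SCARA3, TNS4 and AXIN2 drop in the HCT 116 siBRG1 arrays, JUN, SNAI2, SEMA3C and NR4A3 rise there, and CYP1A1, VEPH1 and TESK2 rise in DLD1 siBRG1.

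Among the rises called for a difference were 5 transcription factors of the immediate early class, which cells induce within minutes of growth factor or stress signals without new protein synthesis. JUN, a subunit of AP-1, read 6.29, 7.07 and 6.81 in HCT 116 siControl and 10.17, 11.15 and 10.78 in siBRG1. In DLD1 it read 7.19, 7.87 and 7.90 with siControl and 9.02, 8.08 and 8.81 with siBRG1. The DLD1 arrays did not overlap either, but the change of 0.98 did not pass there (interval 0.32 to 1.64, limma adjusted p = 0.232), and the difference was 2.99 (SE 0.44, limma adjusted p = 0.00777).

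All 3 members of the NR4A family of orphan nuclear receptors passed. NR4A1 was expressed in both lines, at 9.68, 10.30 and 9.92 in DLD1 siControl and 9.88, 9.75 and 9.19 in HCT 116 siControl. It rose to 11.40, 11.97 and 11.72 in HCT 116 and read 10.05, 9.98 and 9.76 in DLD1 siBRG1 (a difference of 2.13, SE 0.32, limma adjusted p = 0.0102). NR4A3 rose from background in HCT 116, from 4.99, 4.71 and 4.59 to 7.08, 7.86 and 7.37, while DLD1 stayed between 5.18 and 5.56 (difference 2.75, SE 0.30, limma adjusted p = 6.67e-04). NR4A2 rose from 5.42, 5.80 and 6.45 to 7.51, 8.90 and 8.57 and was at background in both DLD1 groups (difference 2.93, SE 0.48, limma adjusted p = 0.0146). Without HCT 116 siBRG1 replicate 3 the adjusted p of NR4A2 was 0.057. EGR1, a zinc finger factor, was high in DLD1 already, at 13.09, 12.65 and 13.10 with siControl and 13.13, 13.56 and 13.03 with siBRG1. In HCT 116 it went from 11.73, 11.73 and 11.69 to 13.82, 13.63 and 13.62, at or above the DLD1 arrays (difference 1.68, SE 0.27, limma adjusted p = 0.0131). Without DLD1 siControl replicate 3 its adjusted p was 0.0516.

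Because these genes rose together, the 250 bases before their RefSeq start sites were read for motifs of the factors known to induce them: TGACG, a core of the cAMP response element, TGACNTCA, the 8-base form of that element and of the JUN promoter site, TGANTCA, the AP-1 site, and the CArG box of SRF, each on both strands. Matches to TGACG can overlap TGACNTCA. The table used holds JUN, EGR1, NR4A1 and NR4A3. The windows of the 3 genes with a match are shown 5′ to 3′ on the gene's strand, build GRCh38.p14, with the matches in capitals.
JUN (chr1:58784048-58784297, minus strand): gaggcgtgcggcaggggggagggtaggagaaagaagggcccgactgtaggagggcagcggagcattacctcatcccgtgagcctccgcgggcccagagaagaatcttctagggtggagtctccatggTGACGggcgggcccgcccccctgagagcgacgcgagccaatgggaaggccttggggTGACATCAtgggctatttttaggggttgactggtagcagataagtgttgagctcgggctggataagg
EGR1 (chr5:138465229-138465478, plus strand): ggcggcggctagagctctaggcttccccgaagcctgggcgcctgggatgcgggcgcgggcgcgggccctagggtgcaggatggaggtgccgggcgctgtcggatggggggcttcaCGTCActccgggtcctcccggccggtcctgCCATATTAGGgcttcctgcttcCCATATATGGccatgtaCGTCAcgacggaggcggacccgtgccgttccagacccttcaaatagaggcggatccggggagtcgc
NR4A3 (chr9:99821635-99821884, plus strand): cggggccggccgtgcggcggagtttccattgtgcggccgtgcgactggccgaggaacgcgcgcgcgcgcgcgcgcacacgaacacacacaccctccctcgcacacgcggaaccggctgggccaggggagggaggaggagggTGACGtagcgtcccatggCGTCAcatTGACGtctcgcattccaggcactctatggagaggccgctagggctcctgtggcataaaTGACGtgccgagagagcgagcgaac

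The JUN window held 1 match to TGACNTCA and 1 to TGACG. The EGR1 window held 2 CArG boxes and 2 matches to TGACG, and the NR4A3 window held 4 matches to TGACG. The NR4A1 window (chr12:52022582-52022831, plus strand) held none of the 4 motifs, which says only that these letters are not in it. Only 1 start site per gene was read, so windows before any other start of NR4A1 were not searched. Of 14250 genes tested that have a window in the table, 25.65% held TGACG, 6.36% TGACNTCA, 5.07% TGANTCA and 1.18% a CArG box. Of the 21 called genes above 0 with a window, 7 held TGACG, 2 TGACNTCA, 0 TGANTCA and 1 a CArG box. Of the 22 below 0, 4, 0, 1 and 1 did. The matches describe the sequence and are not measured binding sites.

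The wider list of AP-1 and immediate early genes, which holds these 5, lay mostly on the same side. Like the other lists it was drawn up with earlier results of these data known. Its counts therefore describe the genes and are not separate support. Of 38 members measured, 5 had a difference above 0 that passed, against 0.158% of all genes, and none below. In 15 the unadjusted p was under 0.05, against 9.0% of all genes. The median difference was 0.52, against −0.03 over all genes, and 33 of the 38 lay above 0, against 46.1% of all genes. The median change was 0.55 in HCT 116 and 0.04 in DLD1. Among those that did not pass were FOSL1 (difference 1.38), the growth-related PHLDA1 (1.09), IER2 (1.14) and KLF6 (1.0), with limma adjusted p between 0.142 and 0.204. FOS, FOSB, EGR3 and EGR4 had differences of 0.09, 0.17, 0.11 and 0.35 with control levels between 3.99 and 5.13 in both lines, around background. ATF3, at 7.21 in DLD1 and 7.05 in HCT 116, changed by 0.77 and 0.88.

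Outside that class, SEMA3C, a secreted semaphorin that guides migrating cells, gave the smallest adjusted p among the rises and was expressed in both lines. It read 9.92, 9.86 and 9.93 in HCT 116 siControl and 12.63, 12.93 and 12.94 in siBRG1. All 6 DLD1 arrays lay between 9.06 and 9.56, and the difference was 2.86 (SE 0.26, limma adjusted p = 9.74e-05). SNAI2, which represses epithelial genes, was at background in both DLD1 groups and in HCT 116 siControl, at 4.03, 5.54 and 5.27. SNAI2 read 7.97, 9.02 and 8.53 in HCT 116 siBRG1, the only group of the 4 with a mean above background (difference 3.94, SE 0.48, limma adjusted p = 0.00195). The secretogranin gene SCG2, of neuroendocrine granules, went from 6.82, 7.93 and 7.56 to 10.37, 10.74 and 10.56 in HCT 116 and lay between 3.02 and 3.76 over the DLD1 arrays (difference 3.13, SE 0.37, limma adjusted p = 0.00137). These 3 calls stood in all 12 fits without an array.

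DKK1, a secreted Wnt antagonist, stood at 11.91, 11.69 and 11.76 in HCT 116 siControl and 14.12, 14.43 and 14.34 in siBRG1, against 3.13 to 4.59 in DLD1. Its difference of 2.31 (SE 0.46, limma adjusted p = 0.048) passed in 2 of the 12 fits without an array, with 0.133 as the highest adjusted p, without HCT 116 siBRG1 replicate 2. RNF128, a ubiquitin ligase, TRIML2 and ARL14EPL changed by 1.71, 2.03 and 1.89 in HCT 116 and were at background in DLD1 as well. Their calls stood in 12, 4 and 6 of the 12 fits. KRTAP2-1 and KRTAP2-2, genes of hair keratin-associated proteins, changed by 3.50 and 3.64 in HCT 116 and by 0.44 and 0.77 in DLD1, which gave differences of 3.05 and 2.87. KRTAP2-3 (difference 2.20, limma adjusted p = 0.12) and KRTAP2-4 (1.30, 0.519) did not pass. The 4 genes are near-identical copies and the array may not separate them, so they count as 1 observation.

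The other rises in genes expressed in both lines were moderate, given by the change in HCT 116 and then in DLD1. MEF2D, a transcription factor of muscle and stress programmes, changed by 1.94 and 0.09, and ATG12, a conjugating protein of autophagosome formation, by 1.87 and 0.24; both calls stood in all 12 fits. AVPI1 changed by 1.57 and −0.23, the mucin-type glycosyltransferase GALNT5 by 1.26 and −0.50, the microtubule-associated ubiquitin ligase MID2 by 1.55 and 0.19, the polarity gene PARD6B by 1.39 and 0.14, and the lipid kinase PIP4K2A by 1.03 and −0.20. The call of GALNT5 was lost without DLD1 siControl replicate 3 or HCT 116 siControl replicate 3 (highest adjusted p = 0.0521). The calls of AVPI1, MID2, PARD6B and PIP4K2A stood in 6, 3, 2 and 1 of the 12 fits. AVPI1 (limma adjusted p = 0.0513) and PIP4K2A (0.0511) did not pass with the replicate block. AHNAK2, a giant scaffold protein, was the 1 gene called in the same direction in both lines whose change also differed. It went from 7.06, 6.55 and 6.92 to 7.85, 7.73 and 8.21 in DLD1 and from 8.47, 8.27 and 8.29 to 11.09, 11.01 and 10.74 in HCT 116 (difference 1.52, SE 0.28, limma adjusted p = 0.0324). That call stood in 3 of the 12 fits, with 0.093 as the highest adjusted p, without HCT 116 siControl replicate 3. STX11, a syntaxin of secretory granules, rose by 1.52 in HCT 116 from a control mean of 3.83, at background, to 5.35, and stayed at 5.88 to 5.90 in DLD1.

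In 6 genes the larger change was that of DLD1. CYP1A1, the classic target of the aryl hydrocarbon receptor, read 8.05, 6.60 and 7.08 in DLD1 siControl and 11.13, 9.30 and 10.58 in siBRG1. In HCT 116 the groups overlapped just above background, at 5.93, 5.88 and 5.44 and at 6.17, 4.75 and 5.79. The difference was −3.27 (SE 0.64, limma adjusted p = 0.0464), it passed in 3 of the 12 fits without an array, and the HCT 116 interval of −1.15 to 0.79 does not bound the change there. CYP1B1, CYP1A2 and the other members of the receptor's list did not pass. VEPH1, a phosphoinositide-binding protein, gave the better bounded case. It read 7.84, 7.74 and 7.42 in DLD1 siControl, 9.07, 9.05 and 9.90 in siBRG1, and 6.58 to 7.02 over the 6 HCT 116 arrays, where the interval of the change ran from −0.71 to 0.25. The difference was −1.91 (SE 0.32, limma adjusted p = 0.017). It was lost without DLD1 siControl replicate 3, HCT 116 siControl replicate 2 or HCT 116 siBRG1 replicate 3, with a highest adjusted p of 0.0642.

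TESK2, a kinase of cofilin, was the 1 gene called in both lines with opposite signs, at 1.43 in DLD1 and −0.85 in HCT 116. It read 4.16, 4.63 and 4.35 in DLD1 siControl and 5.29, 5.92 and 6.22 in siBRG1, so that it rose out of background. HCT 116 read 4.35, 4.49 and 4.20 and then 3.41, 3.69 and 3.41, all below the background level of that line. The fall in HCT 116 thus lies within background values (difference −2.28, SE 0.32, limma adjusted p = 0.00663). IL2RG, the common gamma chain of cytokine receptors, read 6.66, 6.44 and 6.99 and then 5.79, 5.99 and 5.81 in DLD1 and was at background in both HCT 116 groups (difference 1.65, limma adjusted p = 0.0194). Its DLD1 change of −0.84 did not pass (limma adjusted p = 0.108). The HCT 116 change of 0.81 did (limma adjusted p = 0.0237), but within background values. The calcium-binding S100P (difference 1.39) changed by −0.70 in DLD1 and 0.69 in HCT 116, from a control mean at background in HCT 116, and did not pass with the replicate block (limma adjusted p = 0.0511). AGAP2, an Arf GTPase activating protein, changed by −0.70 at background in DLD1 and by 0.54 in HCT 116, where its control mean was 7.87. The calls of IL2RG, S100P and AGAP2 stood in 5, 1 and 3 of the 12 fits.

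SOX9, a transcription factor of intestinal crypts, was high in both lines and moved apart without overlap in each. DLD1 went from 14.06, 13.86 and 13.56 to 14.25, 14.66 and 14.55, and HCT 116 from 11.89, 11.99 and 11.60 to 10.92, 10.82 and 10.87. The DLD1 change of 0.66 did not pass (limma adjusted p = 0.187), the HCT 116 change of −0.95 did (0.00727), and the difference was −1.61 (SE 0.27, limma adjusted p = 0.0161). The call was lost without DLD1 siControl replicate 3, HCT 116 siControl replicate 2 or HCT 116 siBRG1 replicate 3 (highest adjusted p = 0.0627).

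A list of damage response genes held 11 genes of cell cycle arrest, 10 of apoptosis, 6 of feedback and 21 of metabolism, secretion and other roles that were measured. Of these 48, 2 passed, both above 0, against 0.158% of all genes: PHLDA3, an inhibitor of AKT, and RPS27L, a ribosomal protein paralog. Both are in the last role, and none of arrest, apoptosis or feedback passed. PHLDA3 read 5.56, 5.50 and 5.35 and then 4.89, 5.20 and 5.27 in DLD1, and 6.43, 5.88 and 5.98 and then 7.74, 7.33 and 7.26 in HCT 116 (difference 1.70, SE 0.28, limma adjusted p = 0.0179). Its call was lost without DLD1 siControl replicate 1 or HCT 116 siControl replicates 2 or 3 (highest adjusted p = 0.0683). RPS27L arrays did not overlap in either line, going from 11.21, 11.26 and 10.93 to 11.51, 11.43 and 11.65 in DLD1 and from 11.41, 11.74 and 11.67 to 13.22, 13.23 and 13.28 in HCT 116. Its difference of 1.24 (SE 0.24, limma adjusted p = 0.039) passed in none of the 12 fits without an array and not with the replicate block (adjusted p = 0.0519).

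Over the list, 38 of 48 differences lay above 0 and 28 had an unadjusted p under 0.05, against 46.1% and 9.0% of all genes. The median difference was 0.72, against −0.03 over all genes. The median change was 0.66 in HCT 116 and −0.12 in DLD1. By role, the median difference was 0.99 over 10 apoptosis genes, 0.74 over 11 genes of cell cycle arrest and 0.59 over 6 feedback genes. It was 0.31 over 21 genes of metabolism, secretion and other roles. The largest differences belonged to 2 genes with a wide spread between arrays that did not pass. CDKN1A, the inhibitor of cyclin-dependent kinases, read 7.85, 9.05 and 7.77 and then 8.77, 8.74 and 6.95 in DLD1, and 11.87, 11.21 and 11.47 and then 14.34, 14.06 and 13.93 in HCT 116 (difference 2.66, SE 0.60, limma adjusted p = 0.0898). PMAIP1, a BH3-only killer protein, had a difference of 2.88 (SE 0.60, limma adjusted p = 0.0604). MDM2, a ubiquitin ligase, stood near the median of the list, with changes of 0.56 in DLD1 and 1.25 in HCT 116 (difference 0.69, limma adjusted p = 0.487). Other members lay away from it: GDF15 changed by 1.37 and 1.57, and CCNG2 by 1.39 and 0.05. Of the 48 genes, 42 lay above background in both controls and 1 in HCT 116 siControl only.

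**Figure D4:**
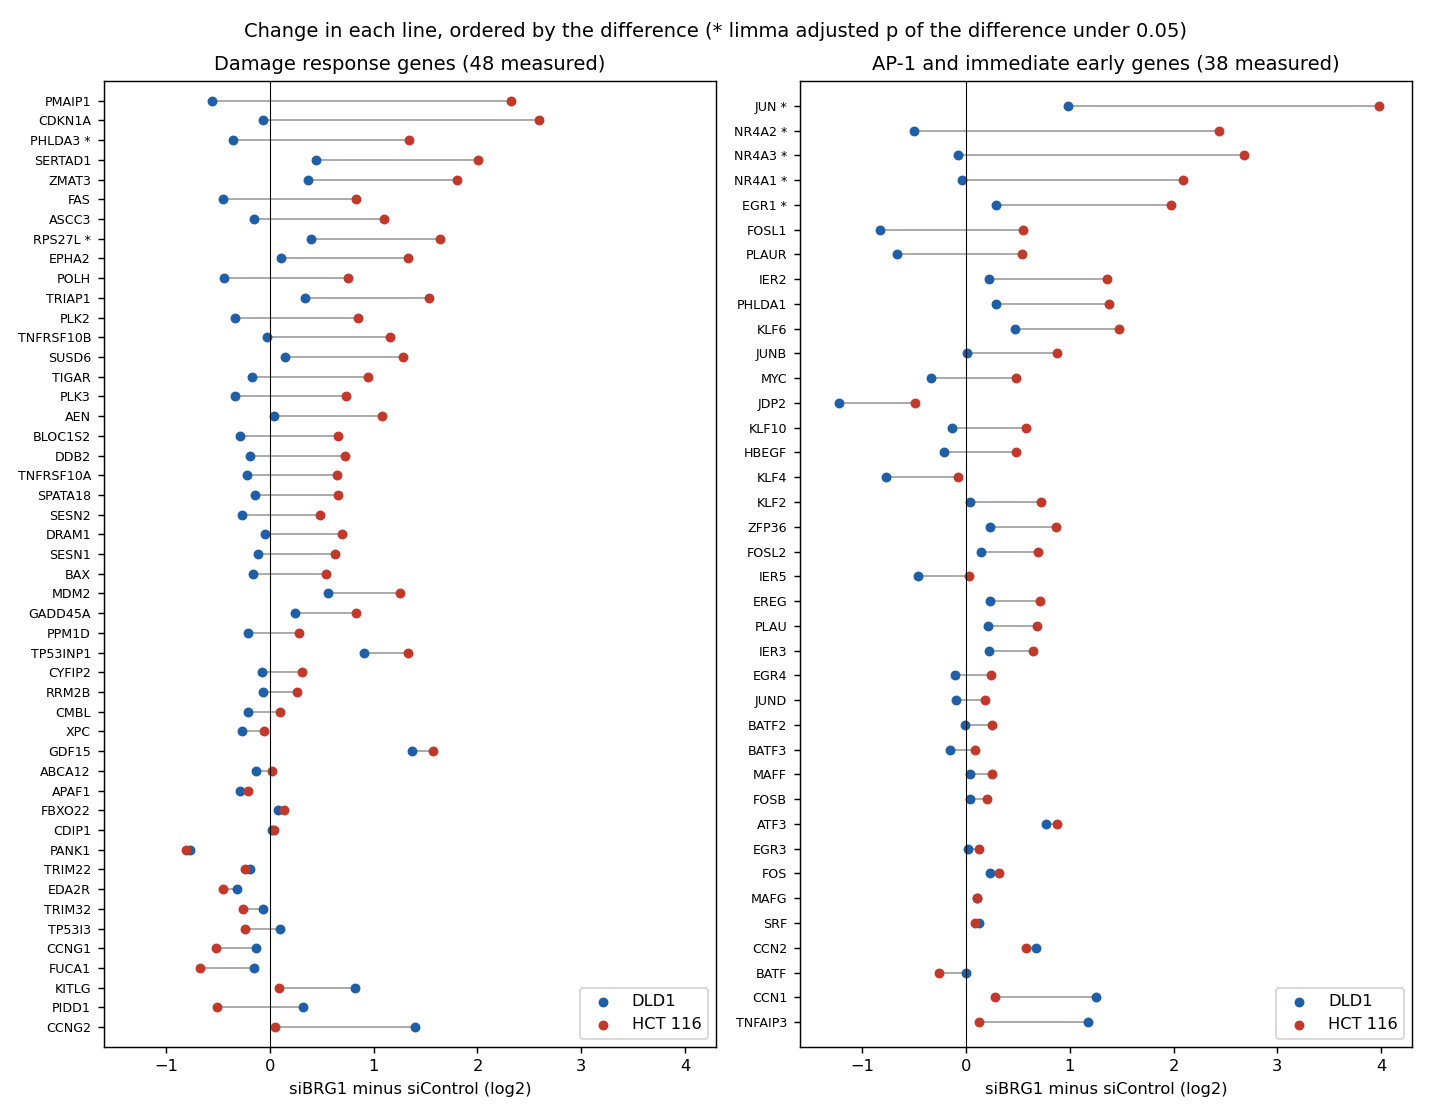
Change after siBRG1 (x axis, log2) in DLD1 (blue) and HCT 116 (red) for the 48 damage response genes measured (left) and the 38 AP-1 and immediate early genes measured (right), ordered by the difference, with an asterisk where the difference passed. The HCT 116 point lies to the right of the DLD1 point in 38 of 48 and in 33 of 38 genes.

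Of 59 genes of DNA replication and S phase, none passed the limma test of the difference, and 12 had an unadjusted p under 0.05, against 9.0% of all genes. The change itself passed downward in 28 of the 59 in HCT 116, against 4.13% of all genes. In DLD1 it passed downward in 0, against 0.13% of all genes. The median difference was −0.39, against −0.03 over all genes, and 4 of the 59 lay above 0, against 46.1% of all genes. The median change was −0.72 in HCT 116 and −0.31 in DLD1. Origin licensing genes, such as the MCM helicase subunits, had the lowest median (−0.53 over 12 genes, with medians of −1.18 in HCT 116 and −0.55 in DLD1). UNG, which removes uracil from DNA, had the largest difference (−1.58, SE 0.41, limma adjusted p = 0.157), and the licensing factor CDT1 stood at −0.96 (0.488). Of 62 genes of G2 and mitosis none passed, 3 had an unadjusted p under 0.05 and the median was −0.14, with BIRC5 at −0.87 (limma adjusted p = 0.442).

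Wnt targets gave calls in both directions. Of 41 measured, DKK1 passed above 0 and AXIN2, SOX9 and KRT23 below, against 0.158% and 0.175% of all genes. An unadjusted p under 0.05 was found in 17, against 9.0% of all genes. The median difference was −0.05, against −0.03 over all genes. Of 26 stem cell markers, SOX9 and MSI1 passed below 0, with a median of 0.10. Of 43 adhesion and matrix genes TNS4 and TESK2 passed below 0 (median −0.09), and of 37 guidance genes SEMA3C passed above and PLXND1 below (median 0.02). Of 24 growth factors and receptors FGF19 passed, and the receptor gene FGFR4 did not (difference −0.13). Of 34 epithelial-mesenchymal genes SNAI2 passed, while CDH1, EPCAM, ZEB1 and VIM did not (median −0.10). Of 27 apoptosis regulators CASP4 passed below 0, and of 37 intestinal differentiation genes SCG2 above. Of 28 keratins and skin-type proteases KRTAP2-1 and KRTAP2-2 passed above 0 and KRT23 below (median −0.19), and of 31 genes of the aryl hydrocarbon receptor and NRF2 CYP1A1 passed below (median −0.08). No epithelial, fibroblast, immune or endothelial marker passed.

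No member passed in the lists of the ATF4 and unfolded protein response (46 genes, median −0.04, 4 at an unadjusted p under 0.05), cholesterol and fatty acid synthesis (30 genes, −0.29, 2), interferon response (41, −0.02, 6), NF-kappaB targets (27, −0.04, 3), hypoxia and glycolysis (36, −0.01, 7), YAP and TEAD targets (27, 0.22, 2), TGF-beta, BMP and Notch feedback (36, 0.01, 9), ERK feedback (28, 0.10, 7), MYC and ribosome biogenesis (26, 0.25, 1) and SWI/SNF subunits (29, −0.25, 2). Over all genes 9.0% had an unadjusted p under 0.05 and the median difference was −0.03. Nearest to a call among the members of those lists were OAS1 and DUSP6. OAS1, an interferon-induced sensor of double-stranded RNA, fell in DLD1 from 10.13, 9.96 and 10.05 to 9.21, 8.40 and 8.59 and lay between 3.69 and 4.62 in HCT 116, at background (difference 1.56, SE 0.34, limma adjusted p = 0.082). DUSP6, a phosphatase of ERK, was expressed in both lines, at control means of 13.50 in DLD1 and 12.86 in HCT 116, and changed by 0.08 and −1.14 (difference −1.23, SE 0.28, limma adjusted p = 0.0921). Wide spreads left larger differences without a call, in those lists and outside them, such as the Notch target HES1 (−2.30, SE 0.67, limma adjusted p = 0.213), the SMAD inhibitor SKIL (1.96, SE 0.48, 0.117) and CKMT1B, a mitochondrial creatine kinase (1.83, SE 0.43, 0.103), whose near-identical copy CKMT1A stood at 1.54.

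Against these stands a set that moved alike. In all, 17 genes were called in both lines in the same direction, and the difference was called in 1 of them, AHNAK2, in 3 of the 12 fits without an array. The interval of the difference lay within 2-fold either way in 7: CRELD2, KIFBP, LIMK1, PON2, THAP9-AS1, TRMT1L and ZYG11B. LIMK1, the kinase that inactivates cofilin, read 8.12, 8.31 and 7.89 and then 5.75, 6.29 and 5.28 in DLD1, and 8.30, 8.23 and 8.57 and then 6.31, 5.40 and 6.14 in HCT 116, a difference of −0.09 with an interval of −0.90 to 0.73. ZYG11B, an adaptor of a ubiquitin ligase that reads protein N-termini, had a difference of 0.13 (−0.49 to 0.75), and PON2, an antioxidant lactonase, one of 0.16 (−0.42 to 0.73). For the other 9, SMARCA4 among them, the interval reached past 2-fold on 1 side, so equal changes were not shown. The 17 are limited by the few calls in DLD1, 35 genes in all. Of 1174 genes called in HCT 116 without a call of the difference, 995 changed in the same direction in DLD1. A missing call of the difference does not show that changes were equal.

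**Figure D5:**
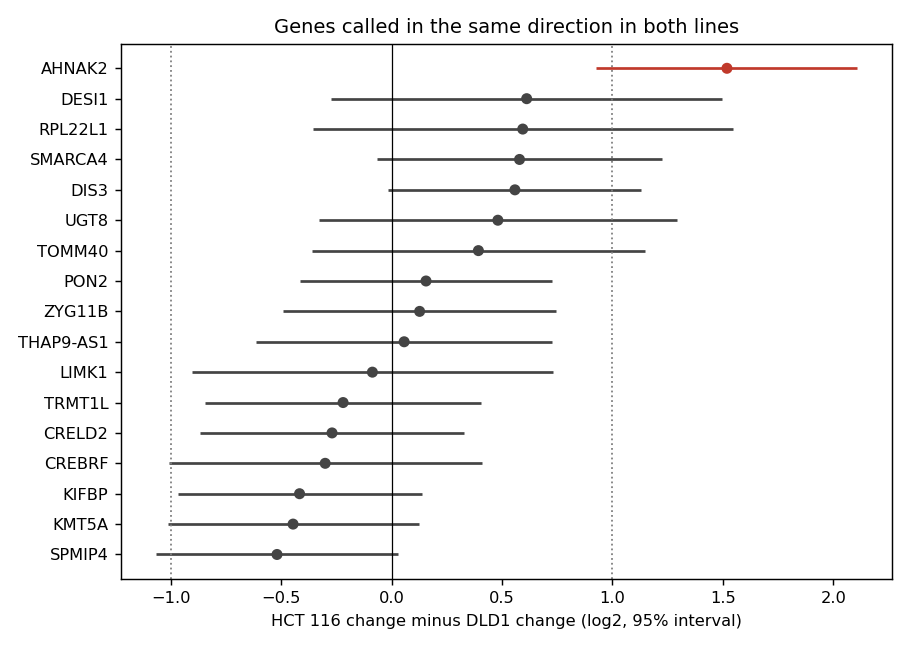
HCT 116 change minus DLD1 change (x axis, log2; points with 95% intervals) for the 17 genes called in the same direction in both lines. Dotted lines mark 2-fold either way; AHNAK2, in red, is the gene whose difference passed (1.52), and 7 intervals lie wholly between the dotted lines.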

How the data were processed

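RNA of DLD1 and HCT 116 cells was read on Affymetrix single-colour arrays, which were grouped by title and characteristics. In 4 HCT 116 samples source name and title disagree on a number within the line's name (2 samples) or within the siRNA target's name (2 samples). Line and target of those 4 thus rest on title and characteristics. The authors deposited log2 values. The submitters' processing notes name RMA and Affymetrix Power Tools. Neither a version nor a build is given in the sources used here. Values ran from 2.16 to 18.05, and 94 to 112 per array exceeded 16, more than a 16-bit scan can yield, which points to a step not named in the labels. The table has no detection calls.

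Of 21448 features, 17709 had 1 symbol, and the brightest feature was kept for 20 genes with several. In limma 3.58.1 (R 4.3.3), 4 group means were fitted over 12 arrays with eBayes (8 residual and 6.66 prior degrees of freedom), and the Benjamini-Hochberg adjustment ran over 17687 genes. Alternatives were the replicate block, other scalings, level filters, priors, array weights, stricter thresholds, other background levels and each array left out; the block in DLD1 alone was chosen after seeing the data. Deviations of same-numbered arrays correlated at 0.49, 0.46 and 0.29 in DLD1 but at 0.30, 0.15 and 0.03 in HCT 116. All DLD1 siControl arrays thus correlated best with the siBRG1 array of their own number, from the data and not the labels. In HCT 116 this held for siControl arrays 1 and 2. The HCT 116 siControl array 3 correlated more with siBRG1 replicate 2 (0.23). Pairing by number was thus clear in DLD1 and partial in HCT 116. The main fit used no block in either line, so its changes, intervals and counts in both lines leave such pairing out. Data on 17687 genes were simulated with independent normal noise at each gene's spread, without pairing by number. Differences were put into HCT 116 siBRG1 alone, in 50 genes of each size. There the fit called 2% of differences of 0.5, 18% of 1, 94% of 2 and 100% of 3, and 8 unchanged genes. These shares hold for those settings. The members and the 28 gene lists were chosen with earlier results of these data known. Lists were described by counts and medians, with no set test. Genes were named by rule: the largest differences in each direction, in each class of level and in each list, and the genes called alike in both lines. Promoter windows are those of RefSeq, for 43 of the 59 genes called, without the bases after the start.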

Additional observations from a re-analysis of the deposited data

Results flagged for a closer look

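The test of the difference between lines picked out 59 named genes, each given here with its difference (HCT 116 change minus DLD1 change, log2). Above background in both control groups, the differences below 0 were those of SCARA3 (−3.75), TNS4 (−3.50), CYP1A1 (−3.27), CASP4 (−2.29), ASIC1 (−2.27), PHLDB2 (−2.08), MBNL3 (−2.06), AXIN2 (−2.01), VEPH1 (−1.91), VWA1 (−1.81), PRF1 (−1.74), PHF19 (−1.68), SH3TC2 (−1.64), SLC25A23 (−1.62), SOX9 (−1.61), BTBD2 (−1.56), SHPK (−1.45), TSPAN14 (−1.40), AP1M2 (−1.31), ACSL5 (−1.23) and ORC3 (−1.11). Those above 0 were KRTAP2-1 (3.05), JUN (2.99), KRTAP2-2 (2.87), SEMA3C (2.86), NR4A1 (2.13), MEF2D (1.85), AVPI1 (1.81), GALNT5 (1.76), PHLDA3 (1.70), EGR1 (1.68), ATG12 (1.64), AHNAK2 (1.52), MID2 (1.37), PARD6B (1.26), RPS27L (1.24) and PIP4K2A (1.23).

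Above background in HCT 116 siControl only were FGF19 (−4.70), SCG2 (3.13), NR4A2 (2.93), ANTXR1 (−2.78), KRT23 (−2.57), DKK1 (2.31), RNF128 (2.0), TRIML2 (2.0), HAPLN3 (−1.89), DNER (−1.74), MSI1 (−1.64), ARL14EPL (1.61), PLXND1 (−1.49), ADAM19 (−1.49) and AGAP2 (1.24). Of the remaining genes, NR4A3 (2.75), IL2RG (1.65), STX11 (1.5) and S100P (1.39) were above background in DLD1 siControl only and SNAI2 (3.94), TESK2 (−2.28) and GPER1 (−1.45) in neither control group.

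Among 3739 features without a gene symbol, which the comparisons above do not use, 4 (0.107%) passed the same test in a fit over all 21448 features, 3 above 0 and 1 below. Their identity was not analysed here.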

How the results depend on the processing

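With each of the 12 arrays left out in turn, the genes called numbered 26 to 71 for the difference, 7 to 66 in DLD1 and 618 to 1271 in HCT 116. Of those called for the difference, 16 to 48 were above background in both controls, 5 to 17 in HCT 116 only, 2 to 5 in DLD1 only, 2 to 3 in neither, and 14 to 40 were bounded in DLD1. With the replicate block these counts were 102 for the difference, 98 in DLD1, 2123 in HCT 116, 72 in both controls, 11 in DLD1 only and 56 bounded. With the block in DLD1 only they were 98, 106 in DLD1, 66, 11 and 52. With array weights they were 162, 128, 2035, 119 in both controls, 29 in HCT 116 only, 10 in DLD1 only and 88 bounded. The trended prior gave 63 in DLD1 and 59 in both controls. With a minimum change of 1.5-fold they were 8, 3, 88, 4, 2, 1, 1 in neither and 5 bounded, and at an adjusted p under 0.01 they were 16, 11, 418, 9, 4, 1 and 9 bounded. Among genes above the median level 2 were in HCT 116 only, 0 in DLD1 only and 0 in neither, by construction. A background at the 90th percentile put 0 in neither control. At the 99th it put 29 in both controls, 7 in DLD1 only and 11 in neither. The median of all genes as background put 29 in both controls and 14 in neither. A bound of 1.5-fold left 17. Without both HCT 116 arrays numbered 1 the difference was called in 76 genes. Signs turned for genes called alike in both lines: LIMK1 to 0.04 after centring and THAP9-AS1 to −0.02 with array weights, ZYG11B to −0.07 without both HCT 116 arrays numbered 1, and, over the fits with an array left out, LIMK1 (−0.33 to 0.19), THAP9-AS1 (−0.17 to 0.23) and PON2 (−0.03 to 0.26). Of 2442 alternatives for named genes, 1955 kept direction and call, 452 lost a call, 22 gained one and 13 turned sign. The cause of these shifts was not tested. At this number of arrays differences of about 1 were mostly missed in simulation, so a gene that was not called may still differ.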
